A study of Mus musculus with 9 samples.

Results

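The mitotic cell cycle genes described here are 45 genes that act between the end of DNA synthesis and the separation of daughter cells. They were given as a list of symbols, matched to Ensembl 96 identifiers through GENCODE M21, and all 45 were found among the 55450 genes counted. All 45 passed the filter of 5 counts on average across libraries and entered the test, with 19326 other genes.

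RNA sequencing was carried out on Rathke's pouch from 7 Sox2Egfp/+ embryos at e13.5 and on the pituitary gland of 2 adult mice at postnatal week 8, from which the posterior lobe had been taken off. All animals were on a 129Sv/c57BL6J background, each library came from 1 animal, and the Sox2Egfp/+ genotype is given for the embryos alone. The study's methods list embryos and adults of both sexes, but the sex of each sample is not given and was not used. The pouch is an epithelial outpocketing that forms the anterior and intermediate lobes, and the question was how expression differs between it and the adult lobes.

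Depth ranged from 16738863 to 28537311 counted read pairs in the embryos and was 36421545 and 31191117 in the adults. Levels are in CPM, which relate the count of a gene to the depth of its library, here adjusted by the TMM method of edgeR. Genes took 59.7% and 62.8% of read pairs in embryos 1 and 4, whereas the remaining embryos had 73.9% to 80.0% and the adults 84.0% and 83.7%. Their most abundant gene was the embryonic globin Hbb-y, which took 8.22% and 9.70% of counts, so the calls were also made without these libraries.

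Cells enter mitosis when cyclin-dependent kinase 1, bound to A- and B-type cyclins, is switched on, and leave it when the anaphase-promoting complex marks cyclins and securin for destruction. Many of the genes involved are transcribed late in the cell cycle and are repressed in resting cells by the DREAM complex, which binds a promoter element called CHR, while the factor NF-Y binds nearby CCAAT boxes. Progenitors around the lumen of Rathke's pouch divide, whereas most hormone cells of the adult gland do not.

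A gene was called when the adjusted p of edgeR's quasi-likelihood test over all tested genes was below 0.05 and the fold change was above 4. By this rule 19 of the 45 genes were called higher in the embryo, where 11.3% of all tested genes were. None was called higher in the adult, where 14.6% of all tested genes were. No member below 0 on the log2 scale had an unadjusted p under 0.05 in edgeR, and none had in DESeq2. The median log2 fold change, embryo over adult, was 1.53 over the 45 genes and -0.04 over all tested genes, and 37 of the 45 were above 0. Scaling by library size alone moved the median over all genes to -0.26.

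Without the threshold on fold change, 30 members were called higher in the embryo, where 24.0% of tested genes were, and 0 higher in the adult, where 27.4% were. At a fold change above 2 there were 29, with 21.4% of all tested genes, and in a test of the fold change against 4 there were 13, with 3.16%. In 31 of the 45 genes all 7 embryos lay above both adults, a pattern seen in 26.2% of tested genes. The reverse pattern was seen in 0 members and in 32.9% of tested genes. In bulk tissue, fewer dividing cells and less RNA of these genes per cell cannot be told apart.

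**Figure D1:**
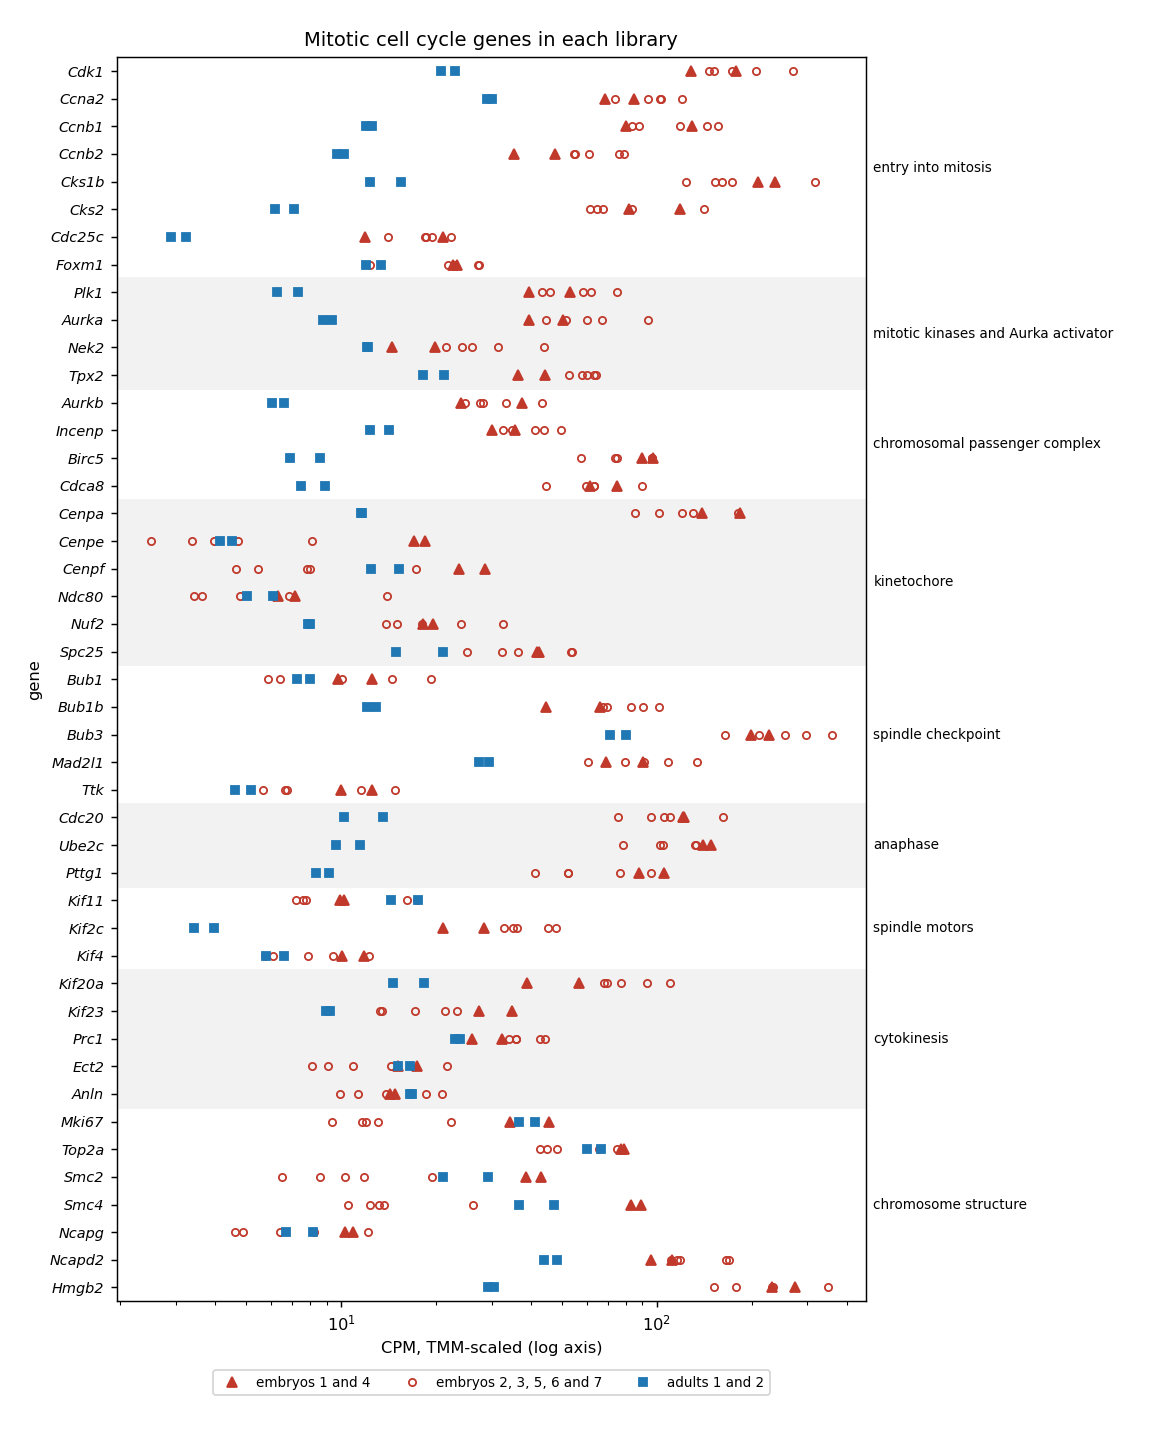
TMM-scaled CPM (log axis) of the 45 mitotic genes, ordered by role, with 1 point per library. Filled triangles are embryos 1 and 4, open circles the other 5 embryos and squares the 2 adults. Cks1b lies between 124 and 319 across embryos, with adults at 15.5 and 12.4, while the points of Top2a overlap.

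Entry into mitosis was the largest role group, and 6 of its 8 genes were called higher in the embryo. Cdk1 (ENSMUSG00000019942, chr10:69335146-69352938, minus strand in GRCm38) encodes the kinase that drives entry. Its level was 128 CPM in the lowest embryo, 174 in the median and 270 in the highest, and 20.7 and 23.0 in the adults. All 7 embryos lay above both adults. The log2 fold change was 3.03 ± 0.35 (SE, n = 7 and 2, edgeR adjusted p = 1.5e-05). Ccnb1 (ENSMUSG00000041431, chr13:100778650-100786570, minus strand), the B-type cyclin that activates this kinase, had a lowest, median and highest embryo value of 80.1, 118 and 156 CPM, and adult values of 12 and 12.6. The groups were again apart, with a log2 fold change of 3.22 ± 0.37 (edgeR adjusted p = 1.3e-05).

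Cks1b, a small subunit that binds cyclin-dependent kinases, had the highest log2 fold change of the group. It was at 124, 173 and 319 CPM in the lowest, median and highest embryo, and at 15.5 and 12.4 in the adults. Every embryo was above both adults, and embryo 6 was the highest. Its log2 fold change came to 3.82 ± 0.42 (edgeR adjusted p = 9.9e-06). Its relative Cks2, the cyclin Ccnb2 and the phosphatase Cdc25c, which removes inhibitory phosphates from Cdk1, were also called, at 3.73, 2.55 and 2.55. Ccna2, the A-type cyclin of S phase and early mitosis, had all embryos above the adults but a log2 fold change of 1.65, below the threshold.

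Foxm1, a transcription factor that activates late cell cycle genes, had the lowest log2 fold change in the group. Its lowest, median and highest embryo values were 12.3, 22.7 and 27.4 CPM, and the adult values were 13.4 and 12. Embryo 6, the lowest, lay between the 2 adults, so the groups overlapped. This gave a log2 fold change of 0.82 ± 0.32 (edgeR adjusted p = 0.046), under the threshold on fold change.

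Promoter windows were compared because many of these genes moved together. RefSeq (GRCm38.p6) windows of 250 bases before to 50 after the start were at hand for 37 of the 45 genes, with 2 windows each for 3 of them. CHR was searched as TTTGAA and the CCAAT box as CCAAT, each on both strands. The 2 motifs can share an end base, and CCAAT boxes on opposite strands can overlap, as in the CCAATTGG of Ube2c, which counts as 2. CHR letters were in 31 of 40 member windows, or 77.5%, against 17.9% of all 32851 windows. CCAAT letters were in 33 of the 40, or 82.5%, against 37.4%, and both were in 28, or 70.0%, against 6.95%. At least 2 CCAAT boxes were in 24 windows, 60.0% against 11.7%.

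The motifs were present in called and uncalled genes alike. Of the 16 called genes with a window, 11 held both motifs, and of the 21 genes not called, 14 did. The 6 windows printed here are of 4 called genes (Cdk1, Cks1b, Cdc20 and Ube2c) and of Top2a and Mki67, which were not called. Capitals mark the CHR and CCAAT letters on either strand, and each sequence reads 5′ to 3′ along the gene's strand. The windows lie at chr10:69352863-69353162 for Cdk1, chr3:89418242-89418541 for Cks1b, chr4:118437294-118437593 for Cdc20, chr11:99024140-99024439 for Top2a and chr7:135716330-135716629 for Mki67, all on the minus strand. The window of Ube2c is at chr2:164769679-164769978 on the plus strand.
Cdk1: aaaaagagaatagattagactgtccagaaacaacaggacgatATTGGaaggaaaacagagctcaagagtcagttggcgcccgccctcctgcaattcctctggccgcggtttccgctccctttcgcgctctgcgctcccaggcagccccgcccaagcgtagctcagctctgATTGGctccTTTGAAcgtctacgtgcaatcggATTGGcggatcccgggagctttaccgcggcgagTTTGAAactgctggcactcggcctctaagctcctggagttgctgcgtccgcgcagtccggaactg
Cks1b: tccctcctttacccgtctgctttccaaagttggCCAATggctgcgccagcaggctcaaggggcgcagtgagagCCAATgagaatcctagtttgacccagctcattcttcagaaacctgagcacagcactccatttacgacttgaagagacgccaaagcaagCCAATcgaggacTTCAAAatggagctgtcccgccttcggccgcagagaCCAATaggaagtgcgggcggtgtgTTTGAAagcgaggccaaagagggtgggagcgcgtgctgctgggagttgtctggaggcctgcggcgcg
Cdc20: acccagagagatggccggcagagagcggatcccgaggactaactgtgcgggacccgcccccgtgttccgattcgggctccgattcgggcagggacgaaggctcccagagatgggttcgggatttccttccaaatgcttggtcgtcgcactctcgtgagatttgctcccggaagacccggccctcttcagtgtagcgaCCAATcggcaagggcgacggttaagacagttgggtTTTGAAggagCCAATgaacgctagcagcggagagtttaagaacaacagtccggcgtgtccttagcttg
Ube2c: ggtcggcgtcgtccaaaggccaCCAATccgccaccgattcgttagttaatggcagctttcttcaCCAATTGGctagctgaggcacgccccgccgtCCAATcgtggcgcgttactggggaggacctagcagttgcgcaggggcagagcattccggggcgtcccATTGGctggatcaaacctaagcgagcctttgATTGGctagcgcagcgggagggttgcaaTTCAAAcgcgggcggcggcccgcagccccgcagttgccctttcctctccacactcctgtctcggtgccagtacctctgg
Top2a: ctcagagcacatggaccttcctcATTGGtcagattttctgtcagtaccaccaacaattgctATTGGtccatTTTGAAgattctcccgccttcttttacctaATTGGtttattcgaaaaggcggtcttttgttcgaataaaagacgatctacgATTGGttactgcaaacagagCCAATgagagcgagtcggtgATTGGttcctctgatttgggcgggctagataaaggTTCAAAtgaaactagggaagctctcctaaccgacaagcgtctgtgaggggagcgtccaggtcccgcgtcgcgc
Mki67: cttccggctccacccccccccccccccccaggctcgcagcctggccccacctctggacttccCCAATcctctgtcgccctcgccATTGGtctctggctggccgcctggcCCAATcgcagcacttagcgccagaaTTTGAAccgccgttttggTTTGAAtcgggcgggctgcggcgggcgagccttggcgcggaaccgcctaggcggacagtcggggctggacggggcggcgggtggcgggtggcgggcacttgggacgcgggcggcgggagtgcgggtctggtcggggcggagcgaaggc
In Cdk1 the CHR letters began 71 and 15 bases before the start, and in Cdc20 they began 18 bases before it. In Mki67, whose log2 fold change was below 0, they began 116 and 98 bases before the start. A match of letters describes the window and does not show that a factor is bound.

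Of 3 mitotic kinases and an activator of Aurka, 2 were called. Plk1, a kinase of centrosome maturation and mitotic exit, was at 39.5, 53.0 and 74.8 CPM in the lowest, median and highest embryo and at 7.30 and 6.27 in the adults. The embryos were all above the adults. In the fit the log2 fold change was 2.99 ± 0.34 (edgeR adjusted p = 1.3e-05). Aurka, the kinase of spindle poles, was called at 2.68, and Tpx2, which activates it on spindle microtubules, was not, at 1.46. Nek2, a kinase of centrosome separation, had 14.5, 24.1 and 43.8 CPM in the lowest, median and highest embryo and 12.2 and 12.1 in the adults. Embryo 1 was the lowest embryo but still above both adults. The fitted log2 fold change was 1.09 ± 0.38 (edgeR adjusted p = 0.027), under the threshold on fold change.

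In the chromosomal passenger complex, which corrects faulty attachments of chromosomes to the spindle, 3 of 4 genes were called. Birc5, or survivin, was at 57.7, 90.2 and 97.2 CPM in the lowest, median and highest embryo and at 8.61 and 6.92 in the adults. The groups were apart by a wide margin. The log2 fold change was 3.43 ± 0.33 (edgeR adjusted p = 3.3e-06). Incenp, the scaffold of the complex, had the lowest log2 fold change of the group, with 30.2, 35.6 and 49.9 CPM in the lowest, median and highest embryo and 14.2 and 12.4 in the adults. All embryos were nonetheless above both adults. Its log2 fold change was 1.53 ± 0.29 (edgeR adjusted p = 0.0007), under the threshold on fold change. Cdca8, or borealin, was called at 3.0, and Aurkb, the kinase of the complex, at 2.30.

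Kinetochores link chromosomes to microtubules, and 1 of the 6 kinetochore genes was called. Cenpa, the histone variant of centromeres, was at 85.6, 131 and 184 CPM in the lowest, median and highest embryo and at 11.6 in both adults. All 7 embryos lay above the adults. This gave a log2 fold change of 3.54 ± 0.38 (edgeR adjusted p = 7.7e-06). Cenpf, a large protein of the outer kinetochore, had 4.65, 8.00 and 28.6 CPM in the lowest, median and highest embryo and 12.5 and 15.2 in the adults. Embryos 1, 4 and 6 were above both adults and the other embryos below both. Its log2 fold change was -0.03 ± 0.60 (edgeR adjusted p = 0.97), and without embryos 1 and 4 it was -0.68 (edgeR adjusted p = 0.21).

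Cenpe, a motor that brings chromosomes to the spindle equator, was at 0.93, or at 0.08 without embryos 1 and 4, and its embryo values ran from 2.50 to 18.5 CPM around adult values of 4.15 and 4.50. Ndc80, Nuf2 and Spc25 are subunits of the complex that grips microtubules. Nuf2 and Spc25 had all embryos above both adults, with log2 fold changes of 1.35 and 1.18. Ndc80 overlapped the adults, with a log2 fold change of 0.24, and embryo 7 stood apart at 14 CPM.

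The spindle checkpoint delays anaphase until every kinetochore is attached, and 1 of its 5 genes was called. Bub1b, which encodes the checkpoint protein BUBR1, was at 44.7, 69.4 and 102 CPM in the lowest, median and highest embryo and at 12.1 and 12.9 in the adults. The groups did not overlap. In the fit the log2 fold change was 2.58 ± 0.35 (edgeR adjusted p = 5e-05). Bub1, a checkpoint kinase, had 5.88, 10.0 and 19.3 CPM in the lowest, median and highest embryo and 7.95 and 7.25 in the adults. Embryos 2 and 3 lay below both adults. The fitted log2 fold change was 0.56 ± 0.44 (edgeR adjusted p = 0.30). Bub3 and Mad2l1, which form the inhibitor of the anaphase-promoting complex with Bub1b, and the kinase Ttk had all embryos above both adults, at 1.69, 1.67 and 0.98.

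All 3 anaphase genes were called. Ube2c, the ubiquitin-conjugating enzyme that works with the anaphase-promoting complex, was at 78.2, 133 and 149 CPM in the lowest, median and highest embryo and at 11.4 and 9.62 in the adults. Embryo 7 was the lowest embryo and lay far above both adults. The log2 fold change was 3.51 ± 0.35 (edgeR adjusted p = 4e-06). Pttg1, the securin that restrains separase, had 41.1, 76.3 and 106 CPM in the lowest, median and highest embryo and 8.32 and 9.14 in the adults. Again no embryo overlapped the adults. Its log2 fold change came to 3.07 ± 0.42 (edgeR adjusted p = 6e-05). Cdc20, which activates the complex, was called at 3.25.

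Among the 3 spindle motors, 1 was called. Kif2c, which takes apart microtubule ends, was at 21.1, 35.1 and 48.1 CPM in the lowest, median and highest embryo and at 3.95 and 3.43 in the adults. All embryos were above both adults. This gave a log2 fold change of 3.26 ± 0.39 (edgeR adjusted p = 1.7e-05). Kif11, which pushes the spindle poles apart, had 7.20, 9.95 and 17.4 CPM in the lowest, median and highest embryo and 14.3 and 17.5 in the adults. Embryos 6 and 7 fell between the adults and the other 5 embryos lay below both. In the fit the log2 fold change was -0.55 ± 0.38 (edgeR adjusted p = 0.24). Kif4, a chromosome-bound motor, overlapped the adults at 0.54. Pdzd11 overlaps it on the other strand, which held 149% of its count.

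Cytokinesis separates the daughter cells, and 1 of its 5 genes was called. Kif20a, a motor of the central spindle, was at 38.9, 69.6 and 110 CPM in the lowest, median and highest embryo and at 18.3 and 14.6 in the adults. All embryos lay above both adults. The fitted log2 fold change was 2.16 ± 0.38 (edgeR adjusted p = 0.00042), and the fold change fell to the other side of the threshold when library size alone was used. Cdc23 overlaps it on the other strand, which held 42.7% of its count, and 29.3% of its 75-base stretches are shared, most of them with that gene. Ect2, which activates the small GTPase of the contractile ring, had 8.11, 14.4 and 21.7 CPM in the lowest, median and highest embryo and 15.2 and 16.6 in the adults. Embryos 4 and 7 lay above both adults. The log2 fold change was -0.20 ± 0.37 (edgeR adjusted p = 0.67). Kif23, a further central spindle motor, and Prc1, which bundles its microtubules, had all embryos above both adults at 1.24 and 0.61, and Anln, a scaffold of the ring, overlapped at -0.17.

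Of the 7 genes of chromosome structure, 1 was called. Hmgb2, a DNA-bending chromatin protein, was at 152, 232 and 349 CPM in the lowest, median and highest embryo and at 30.6 and 29.3 in the adults. The embryos were all above the adults. Its log2 fold change came to 2.98 ± 0.37 (edgeR adjusted p = 2.2e-05). Top2a (ENSMUSG00000020914, chr11:98992943-99024189, minus strand), the topoisomerase that untangles sister chromatids, had 42.6, 65.6 and 79.0 CPM in the lowest, median and highest embryo and 60.1 and 66.8 in the adults. The groups overlapped, with embryos 1, 4 and 6 above both adults. This gave a log2 fold change of -0.04 ± 0.29 (edgeR adjusted p = 0.92).

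Mki67 (ENSMUSG00000031004, chr7:135689784-135716361, minus strand), a coat protein of mitotic chromosomes used as a marker of dividing cells, had the lowest log2 fold change of all 45 genes. It was at 9.37, 13.1 and 45.5 CPM in the lowest, median and highest embryo and at 36.6 and 41.1 in the adults. Embryo 4 was above both adults and the other 6 embryos were below both. In the fit the log2 fold change was -0.88 ± 0.49 (edgeR adjusted p = 0.15). The condensin subunits Smc2, Smc4 and Ncapg, which compact chromosomes, also overlapped the adults, at -0.36, -0.25 and 0.15. In Smc2 and Smc4 embryos 1 and 4 were above both adults and the other embryos below both. Without embryos 1 and 4, Mki67, Smc2 and Smc4 were at -1.49, -1.14 and -1.45 (edgeR adjusted p = 0.0014, 0.020 and 0.0024). Ncapd2, another condensin subunit, had all embryos above both adults at 1.46. The share called was 14.3% in this group, 16.7% in the kinetochore group and 20% in each of the spindle checkpoint and cytokinesis groups, 1 gene in each, and the first is near the 11.3% of all tested genes.

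**Figure D2:**
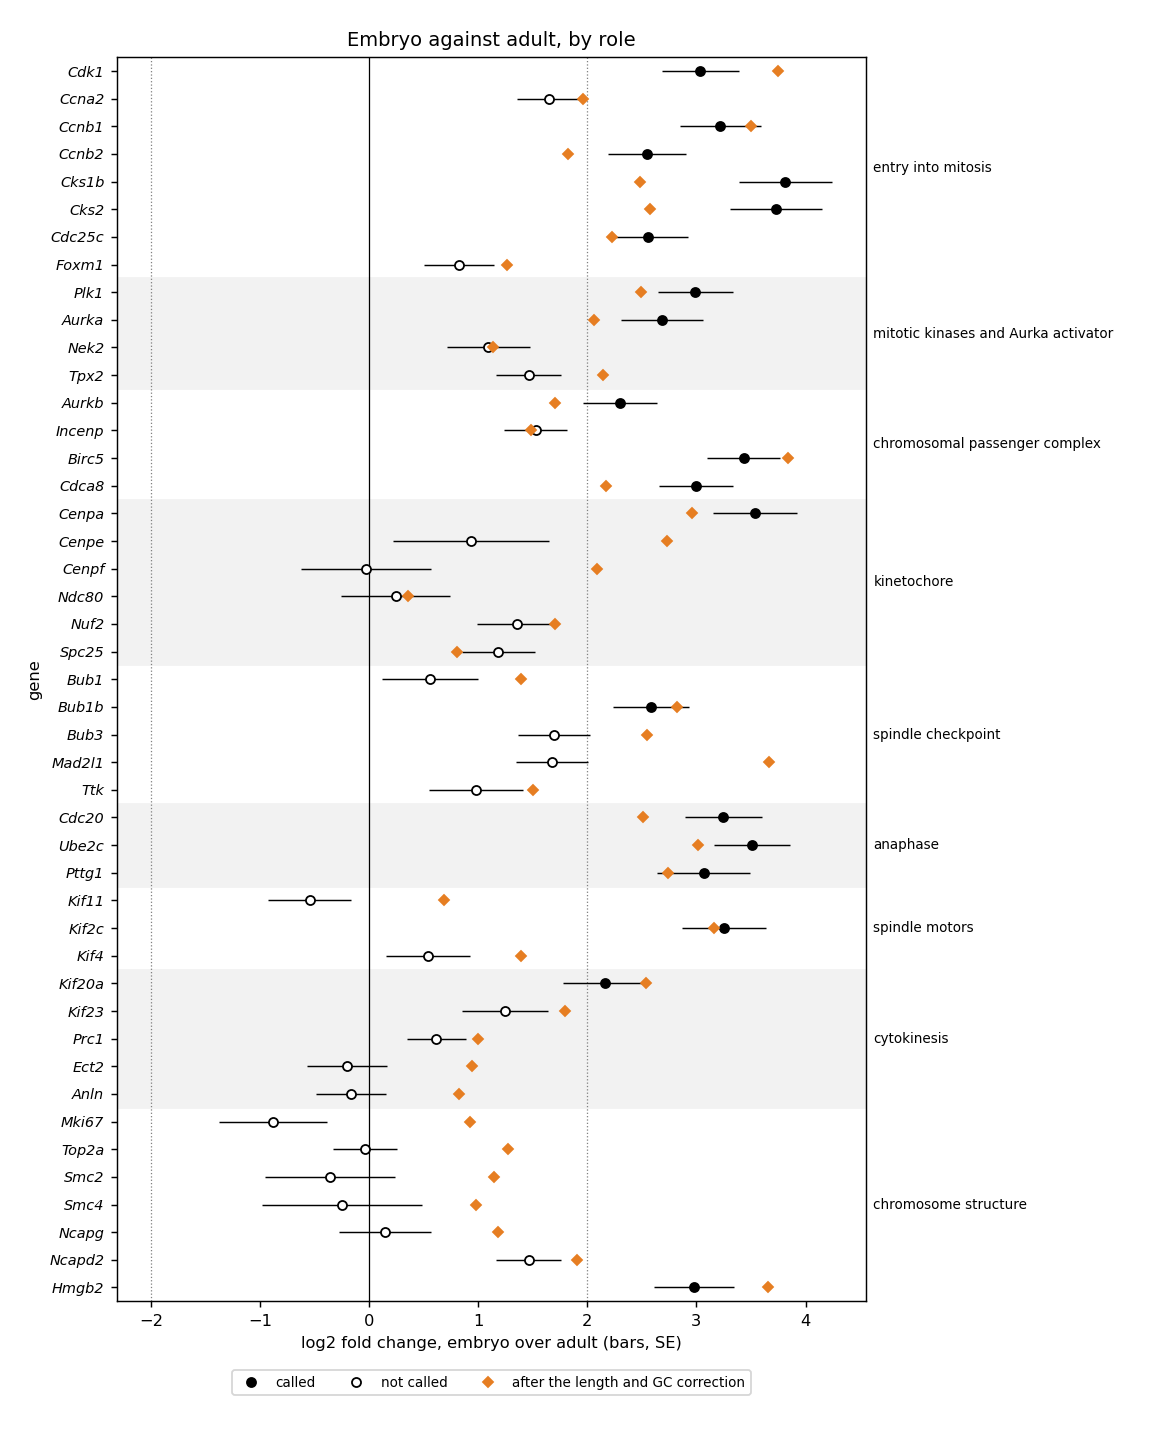
Log2 fold change, embryo over adult, of each of the 45 genes by role. Circles with SE bars are from the fit without correction (filled where called, open where not), diamonds are from the fit corrected for transcript length and GC content, and dotted lines mark a fold change of 4. The diamond of Mki67 is at 0.92 and its circle at -0.88.

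Levels of different genes were compared per kilobase of the longest coding transcript. In the embryo Cks1b had the highest mean, 232 CPM per kilobase, followed by Cks2 at 128 and Cenpa at 91.9, and Cenpe had the lowest at 1.05. In the adult Bub3 ranked highest at 22.1 CPM per kilobase, followed by Cks1b at 16.4 and Top2a at 12.2. The longest annotated transcript can exceed the one expressed, so that levels per kilobase can be too low. For Cdk1 it has 4375 bases against a median of 1253 over its transcripts.

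Fold change fell with transcript length. The rank correlation of the log2 fold change with length was -0.699 over the 45 genes and -0.405 over the 19371 tested genes, as a description across genes, which are not independent replicates and share the same libraries. Tested genes were divided into 3 bands of equal size. Of the 11 members with transcripts of up to 1984 bases, 10 were called higher in the embryo, where 21.6% of all genes in the band were. In the middle band it was 8 of 18 members and 8.32% of all genes, and among the longest transcripts 1 of 16 members and 3.81%.

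Spc25 was the member of the short band that was not called, and Cdk1 the member of the long band that was. The bands rest on the longest annotated transcript. For Cdk1 the median over its transcripts, 1253 bases, is under the 1984 bases that bound the short band. The same holds for Foxm1, Ect2 and Anln in the long band, at 1718, 712 and 718 bases, which were not called. The median log2 fold change of the members was 3.0 in the short, 1.67 in the middle and 0.06 in the long band, and over all genes it was 0.94, 0.01 and -0.89. In each band the median of the members was above that of all genes. All 11 short and all 18 middle members were above 0, and 8 of the 16 long members were.

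Once transcript length and GC content had been corrected for in every library, the rank correlation over the members was -0.247 and that over all tested genes 0.0489. Then 22 members were called higher in the embryo, where 8.39% of all tested genes were, and their median was 1.96. Of the 19 genes called without the correction, 17 were among them. Ccnb2 and Aurkb were lost, at 1.82 and 1.70, and Tpx2, Cenpe, Cenpf, Bub3 and Mad2l1 were gained, at 2.14, 2.73, 2.08, 2.55 and 3.66. The correction took the longest annotated transcript, in these gained genes of 4365, 7910, 11130, 3414 and 7557 bases. The medians over their transcripts were 3907.5, 4246, 3001, 1482.5 and 4641 bases, and a correction with those was not tested. When embryos 1 and 4 were also left out, Cenpe, at 1.99 (edgeR adjusted p = 0.009), fell just under the threshold on fold change and Cenpf, at 1.62 (edgeR adjusted p = 0.026), was under it too.

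All 8 members below 0 without the correction were above 0 with it. Top2a was at 1.27 (edgeR adjusted p = 0.0031) and Ect2 at 0.94 (edgeR adjusted p = 0.0081), while Mki67 was at 0.92 (edgeR adjusted p = 0.21). The median of the members was then 2.22 in the short, 2.23 in the middle and 1.27 in the long band, against -0.01, 0.05 and 0.10 over all genes. The correction also takes away any real difference between stages that goes with length. Stage and the relation to length cannot be told apart in this design.

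**Figure D3:**
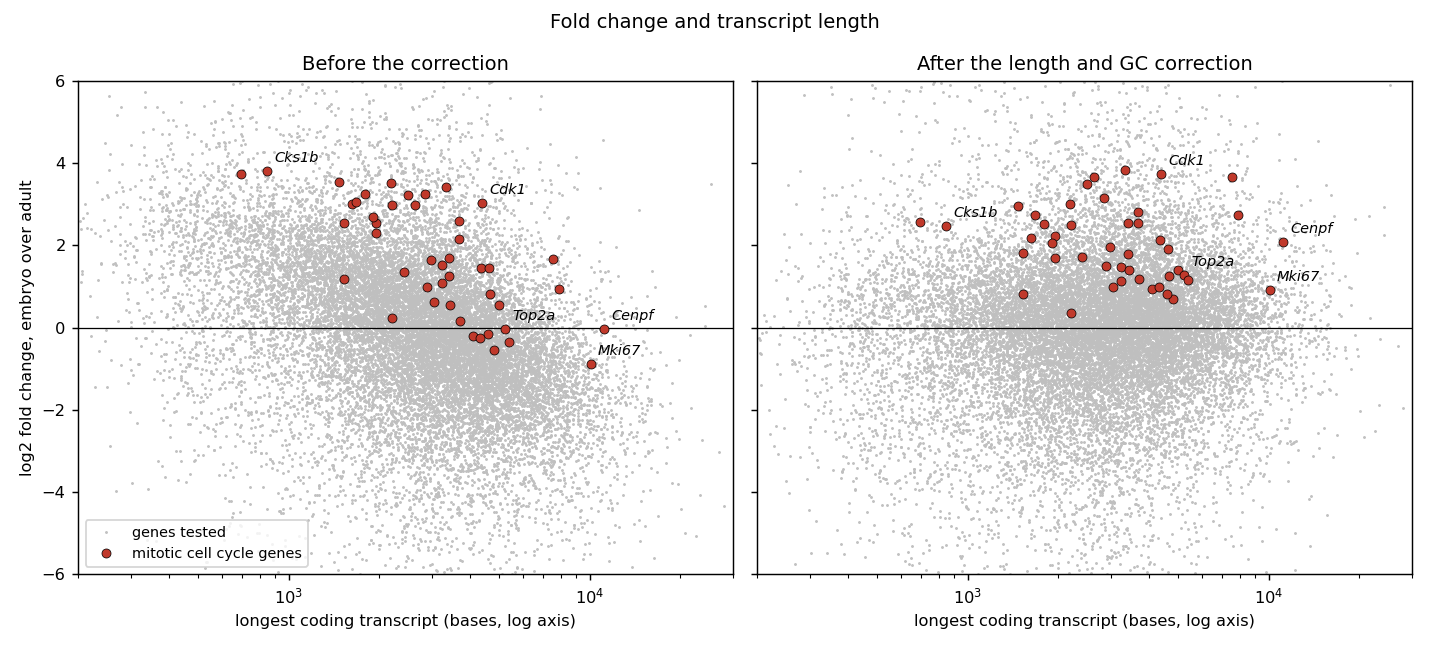
Log2 fold change, embryo over adult, against the length of the longest coding transcript (bases, log axis) before and after the correction. Grey points are tested genes within the axes and large points the 45 mitotic genes. The rank correlation over the mitotic genes is -0.699 before and -0.247 after it.

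The spread between embryos differed between members. The coefficient of variation over the 7 embryos ran from 17.2% in Prc1 to 98.7% in Smc4, with a median of 27.2%. It was 28.9% over the 10201 tested genes with an embryo mean in the same range. Without embryos 1 and 4 the order turned, with medians of 29.3% over the members and 26.5% over those genes, and the range ran from 7.61% in Tpx2 to 67.2% in Ndc80. Embryos 1 to 7 held the highest value of 6, 0, 10, 5, 2, 11 and 11 members and the lowest value of 13, 13, 3, 3, 1, 1 and 11. The sum over the 45 genes was 2710, 2398, 3221, 3124, 2497, 3614 and 2495 CPM in embryos 1 to 7, and 762 and 788 in the adults, with Bub3 giving the largest CPM at both stages.

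Smc4 varied most over the 7 embryos, and its coefficient of variation without embryos 1 and 4 was 41.1%. It was at 88.9 CPM in embryo 1 and 82.8 in embryo 4, and between 10.5 and 26.1 in the other 5 embryos, with 36.5 and 47.1 in the adults. Embryos 1 and 4 were thus above the adults and the other 5 below them. Embryos 1 and 4 were both above the other 5 in 8 members (Cenpe, Cenpf, Ube2c, Kif23, Mki67, Top2a, Smc2 and Smc4), as in 11.4% of tested genes. They were both below the other 5 in 7 (Ccnb2, Nek2, Tpx2, Bub1b, Kif2c, Kif20a and Prc1), as in 15.7%.

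Without embryos 1 and 4, the same 19 genes were called and none was called higher in the adult. Mki67, Smc4 and Smc2 then had log2 fold changes of -1.49, -1.45 and -1.14, with edgeR adjusted p of 0.0014, 0.0024 and 0.020. Higher values in the adult at an adjusted p below 0.05 were seen in 29.7% of tested genes in that fit. With the length and GC correction added, Mki67 was at 0.33, Smc4 at -0.13 and Smc2 at 0.48 (edgeR adjusted p = 0.49, 0.76 and 0.21).

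The median log2 ratio to the mean of the 7 embryos over the 16 long members was 0.14 in embryo 1 and 0.33 in embryo 4. It was -0.58, -0.57 and -0.52 in embryos 2, 3 and 5, and 0.07 and 0.05 in embryos 6 and 7. Over the 5805 long genes with counts in all 9 libraries it lay between -0.26 in embryo 3 and 0.30 in embryo 7. The members and these genes thus did not take the same order of embryos. Single members departed from the median, such as Ncapd2, at 165 and 169 CPM in embryos 3 and 5 against an embryo mean of 127.

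**Figure D4:**
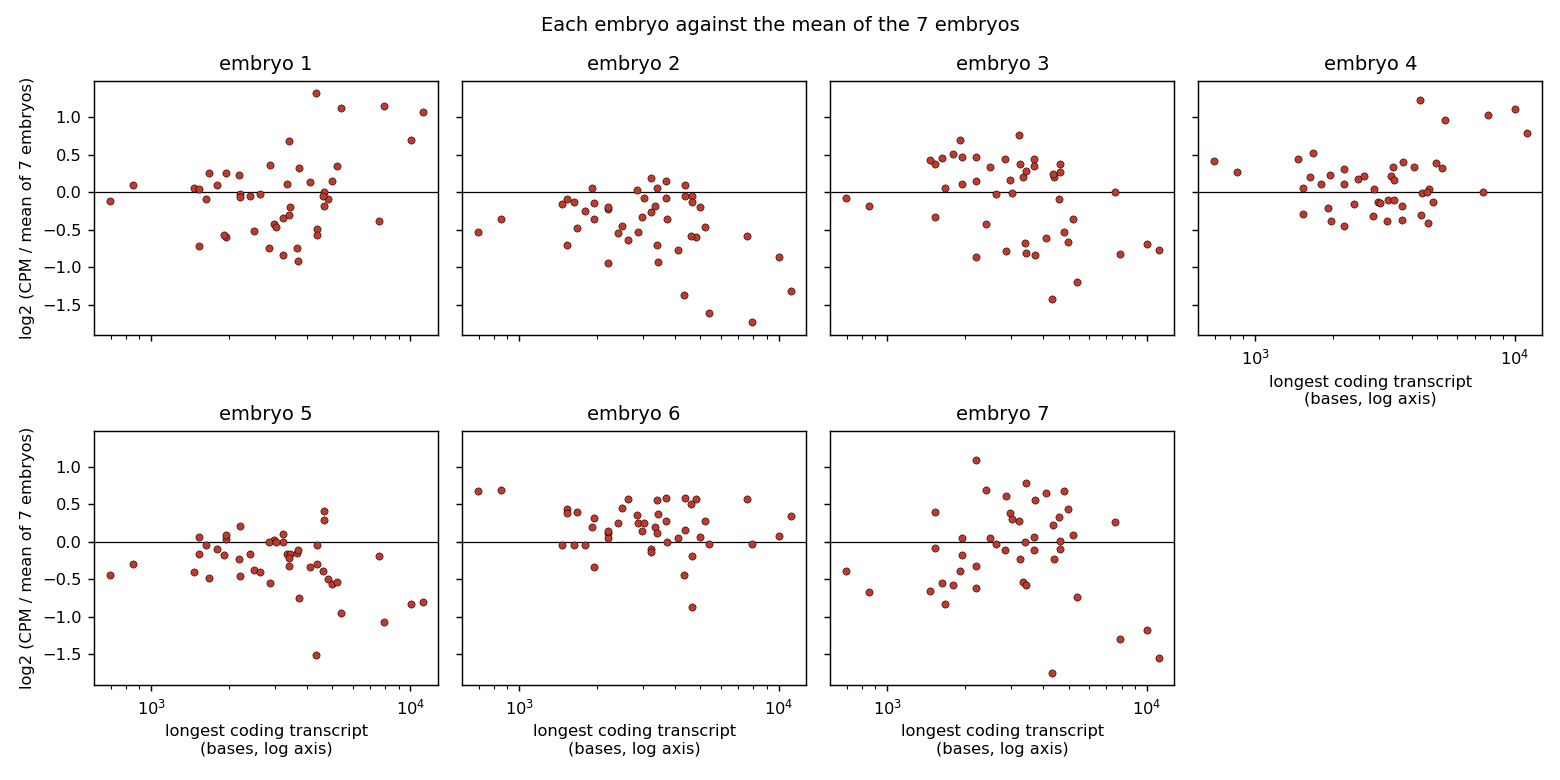
Log2 ratio of CPM in each embryo to the mean of the 7 embryos, for the 45 mitotic genes against the length of the longest coding transcript (bases, log axis). Each panel is 1 embryo and each point 1 gene. Cenpe, Cenpf, Mki67, Smc2 and Smc4 lie above the mean in embryos 1 and 4 and below it in embryos 2, 3, 5 and 7.

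Of 8 erythroid markers, 7 were called higher in the embryo, where 11.3% of all tested genes were. After the length and GC correction 4 were, against 8.39% of all tested genes. Without embryos 1 and 4 there were 6, and the log2 fold change of Hbb-bs fell from 3.69 to 1.49 and that of Hba-a1 from 4.91 to 2.69. Their sum was 163747 CPM in embryo 1 and 203668 in embryo 4, and 18512, 18127, 15473, 18513 and 6023 in embryos 2, 3, 5, 6 and 7. In the adults it was 657 and 1703. Hbb-y was the most abundant of them in the embryo and Hbb-bs in the adult, and Hbb-bh1 was at 0 in both adults. The part of erythroid cells in the values of embryos 1 and 4 was not tested.

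Markers of adult hormone cells were called higher in the adult in 7 of 8 cases, the exception being Tshb. After the length and GC correction all 8 were. Summed, they gave 873 to 1921 CPM across embryos, with 152620 and 160148 for the adult libraries, with Cga the most abundant in the embryo and Gh in the adult. Of the Rathke's pouch epithelium markers reported here, Hesx1 was called higher in the embryo, and Sox2, Lhx3 and Pitx1 were not called. The embryos were Sox2Egfp/+, a genotype not given for the adults, and its part in the Sox2 count was not tested.

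Of 6 mesenchyme markers, 4 were called higher in the embryo and Prrx1 higher in the adult, against 11.3% and 14.6% of all tested genes. After the length and GC correction 4 were called higher in the embryo and 0 in the adult. The sum over the 6 was 581 to 2147 CPM across embryos, with adult sums of 582 and 381, led by Col3a1 and Col1a2. Of 5 endothelial markers 1, Emcn, was called, joined by Cdh5 at 2.02 without embryos 1 and 4, with sums of 116 to 432 CPM and of 117 and 73.5, led by Emcn and Kdr. Of 4 macrophage markers 0 were called by edgeR or DESeq2, and 1 had an unadjusted p under 0.05 in each, with sums of 101 to 243 and of 74 and 109, led by C1qb and Csf1r. Of 4 tested markers of the ventral diencephalon and posterior lobe, Nkx2-1 and Rax were called higher in the embryo, with sums of 59.8 to 156 and of 38.4 and 32.9, led by Rax and Dcx. Neurog2 was under the count filter. After the length and GC correction 2 endothelial, 0 macrophage and 2 ventral diencephalon and posterior lobe markers were called higher in the embryo. The part of these cells in the results for the mitotic genes was not tested.

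A list of 78 other mitotic genes, all tested, had 15 called higher in the embryo and 2 higher in the adult, which is 19.2% and 2.56%, against 11.3% and 14.6% of all tested genes. Spc24, a partner of Spc25, ranged from 30.7 to 76.3 CPM across embryos, with adult values of 5.75 and 6.69 and a log2 fold change of 3.07. Pimreg, a regulator of the metaphase to anaphase transition, was at 3.03, and the chromosome-bound motor Kif22 at 2.80. Ckap5, a microtubule polymerase, and the condensin II subunit Ncapg2 were higher in the adult, at -2.28 and -2.55. Both were picked after their values were seen, and neither was called after the length and GC correction, at -0.69 and -1.45.

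Of 17 genes of G1 and S phase tested, 4 were called higher in the embryo, or 23.5% against 11.3% of all tested genes, and 1 in the adult, or 5.88% against 14.6%. Ccne1, the cyclin of S phase entry, was at 3.50, the G1 kinase Cdk4 at 2.86 and the retinoblastoma gene Rb1, a brake on S phase, at -2.71. The last was not called after the length and GC correction, at -1.42. Among 7 inhibitors of cyclin-dependent kinases, Cdkn1c was called, at 5.53, with 1573 to 2282 CPM across embryos and adult values of 21 and 58.7. It encodes p57, which holds cells out of the cycle. The share called higher in the embryo was 14.3%, near the 11.3% of all tested genes, and the median over the 7 was -0.34. Cdkn1b and Cdkn2c had all embryos below both adults, at -1.66 and -1.52 (edgeR adjusted p = 0.00028 and 0.0023), under the threshold on fold change. After the length and GC correction Cdkn1b was at -0.50 (edgeR adjusted p = 0.16) and Cdkn2c at -1.87 (edgeR adjusted p = 0.00023).

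Of 17 subunits and regulators of the anaphase-promoting complex, 2 were called higher in the embryo, Ube2s at 2.20 and Anapc13 at 2.19, which is 11.8%, near the 11.3% of all tested genes. With no threshold on fold change 12 were higher in the embryo and 3 in the adult, against 24.0% and 27.4% of tested genes. All embryos were above both adults in 12, against 26.2%, and the median over the 17 was 1.14. Of 10 DREAM and MuvB genes, Mybl2, the B-Myb activator of late cell cycle genes, was called at 2.14, so that the share, 10%, was near that of all genes too, and with no threshold on fold change 5 were higher in the embryo and 1 in the adult. Without embryos 1 and 4 Anapc13 and Mybl2 fell just under the threshold on fold change, at 1.989 and 1.996, and Cdc27 was called higher in the adult, at -2.10. Of 5 cohesin genes, Stag2, a subunit of the ring that holds sister chromatids, was called higher in the adult at -2.39, which is 20%, against 14.6% of all tested genes, and Smc3 joined it, at -2.21, when embryos 1 and 4 were left out. All 5 cohesin genes had an adjusted p below 0.05 and every embryo below both adults, as 27.4% and 32.9% of tested genes had. After the length and GC correction Ube2s, Anapc13 and Stag2 were not called, Mybl2 was, at 2.27, and Anapc10 and Rbbp4 were gained, at 3.41 and 2.78. Of the cohesin genes Stag2 alone then had an adjusted p below 0.05, at -0.66 (edgeR adjusted p = 0.042), and with embryos 1 and 4 left out as well Smc1a, Smc3 and Stag2 had, at -0.85, -0.90 and -0.83 (edgeR adjusted p = 0.0036, 0.026 and 0.0052).

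Some members share sequence with genes elsewhere in the genome, and read pairs that aligned in several places were not counted, so that their levels may be too low. The share of 75-base stretches also found in transcripts of another gene, leaving out genes whose exons overlap the member, was 35.2% in Ccnb1 (most with Ccnb1-ps), 26.9% in Cks2 (most with Gm15452) and 20.8% in Hmgb2 (most with Gm4739), and less than 5% in the remaining members.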

How the data were processed

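Strand-specific RNA was measured in 9 libraries, 7 from embryos and 2 from adults, grouped by the sample labels. The authors trimmed read pairs with Trimmomatic 0.39, aligned them with STAR 2.7.5b to mm10 and deposited raw counts per gene, not normalised. Of STAR's columns, the one for the reverse strand was used, which fits the directional kit.

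Counts were fitted with edgeR 4.0.16 in R 4.3.3 (TMM, quasi-likelihood, stage as the only term, common dispersion 0.190) over 19371 genes, those averaging 5 counts or more, with Benjamini-Hochberg adjustment over all of them. Length and GC correction used splines with 4 degrees of freedom through genes averaging 50 counts or more. The SE given with a log2 fold change is its absolute value divided by the square root of the quasi-likelihood F statistic. DESeq2 1.42.0 was an alternative. The steps were tested on simulated data. Tables and plots used Python 3.11.15 with matplotlib 3.10.9, scipy 1.17.1, pandas 2.3.3 and numpy 2.4.6. Promoter windows are from RefSeq GRCm38.p6.

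Counted read pairs were 16738863, 28537311, 24816013, 18825731, 24687556, 22393725 and 25755469 in embryos 1 to 7 and 36421545 and 31191117 in adults 1 and 2. A floor of 3 counts was worth 0.0727 to 0.220 CPM and covers counting error only. With 2 adults the spread within that group rests on a single difference.

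The members and lists were chosen with earlier results of these data known. Values in each library are given for Mki67, Top2a, Cdk1, Ccnb1 and, by role, for the members with the highest and lowest log2 fold change, and for pathway lists the 3 called genes with the largest change are named. Alternatives were other tests, scalings, filters, thresholds, count columns, lengths, libraries left out and a replicate block.

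Some of the planned markers of Rathke's pouch epithelium, and the sum over that list, are not reported here.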

Additional observations from a re-analysis of the deposited data

Results flagged for a closer look

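In 2 members a single embryo stood far from the other 6. Foxm1 was at 12.3 CPM in embryo 6, against 21.8 to 27.4 in the other embryos, and Ndc80 was at 14 CPM in embryo 7, against 3.41 to 7.13. Chance would single out about 1 group in 20, or 2.25 of the 45 genes. Without embryo 7 the log2 fold change of Ndc80 was -0.061.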

How the results depend on the processing

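The 19 members called higher in the embryo were the same under DESeq2, its size factors, each filter, the unstranded count, and with any library or embryos 1 and 4 left out. None was called higher in the adult under any alternative. Kif20a was lost with library size alone and on replicates 1 and 2. Embryos and adults were different animals, so replicates 1 and 2 are not pairs by design. The correlations of deviations from the stage means were 0.0345 and 0.0237. With 2 adults these deviations mirror each other, so the correlations cannot decide on pairing. The replicate block gave 18 members and 4103 genes, and those 4 libraries without the block, added after seeing the data, gave 18 and 3984. All genes called were 5001, against 1744 in the test against a fold change of 4, 8960 above 2, 9948 with no threshold and 2634 with at least 10 counts in every library, where fewer genes were tested. The members called were 29 above 2 and 30 with no threshold. Other mitotic genes called higher in the embryo were 15, against 3, 42 and 43 in the test against 4, above 2 and with no threshold. G1 and S phase regulators called in either direction were 5 of 17, against 2, 9 and 9. There were 3 after the length and GC correction, also without embryos 1 and 4 (added after seeing the data). With no threshold 5 were higher in the embryo and 4 in the adult, where 24.0% and 27.4% of tested genes were. The members' median of 1.53 was 1.31 with library size alone, 1.29 with the block, 1.33 on its libraries without it, 1.96 with the correction and 1.94 with the correction and without embryos 1 and 4. The correlation with length, -0.699, was -0.703 with the union of exons, -0.555 with the median transcript, -0.668 on replicates 1 and 2, -0.247 with the correction and -0.333 also without embryos 1 and 4. The cause was not tested.

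Leaving out each library gave 19 members, 3782 to 5234 genes, 15 to 17 other mitotic genes, 5 G1 and S phase regulators, medians of 1.45 to 1.62 and correlations of -0.713 to -0.683. It gave log2 fold changes of -0.28 to 0.12 for Cenpf, -0.061 to 0.41 for Ndc80 and -0.11 to 0.062 for Top2a. Signs turned only in members outside the 19 called without the correction. With the correction, and then also without embryos 1 and 4, these were Cenpf (2.08, 1.62), Kif11 (0.69, 0.71), Ect2 (0.94, 0.85), Anln (0.82, 0.76), Mki67 (0.92, 0.33), Top2a (1.27, 1.09) and Smc2 (1.15, 0.48), and Smc4 (0.98) with the correction alone. Ndc80 was at -0.23 with the block. On replicates 1 and 2 without it Ndc80 was at -0.17, Cenpf at 0.32 and Smc4 at 0.32. Ncapg was at -0.087 with library size alone, -0.21 with the unstranded count and -0.0065 without embryos 1 and 4.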
